A study of Mus musculus with 8 samples.

Results

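A set of 9 forkhead genes known from mesenchyme was followed in stomachs of mouse embryos: Foxf1a (the older symbol of Foxf1), Foxf2, Foxl1, Foxd1, Foxd2, Foxc1, Foxc2, Foxp1 and Foxp2. They are the loci whose deposited gene name is one of these 9 symbols, out of 26747 assembled loci, of which 23165 carry a gene name. The set was chosen by the difference between YAP5SA and wild type in the fragments and FPKM of these same libraries, so those levels and fold changes are given as a description, without a test. Messenger RNA of whole stomachs was sequenced at E13.5. The 4 YAP5SA libraries came from embryos of the genotype Nkx3.2Cre;R26-YAP5SA, and the 4 wild type libraries from embryos with neither allele named in their genotype. In YAP5SA embryos, Cre recombinase driven by the gene of the homeobox factor Nkx3-2, which is active in the mesenchyme of the gut, turns on a form of the coactivator YAP that escapes inhibition by the Hippo kinases, from the Rosa26 locus. The comparison asks how the stomach differs when YAP is active in its mesenchyme. No library carried the Cre allele alone, so its effect and that of YAP5SA cannot be told apart, and the labels do not say how many embryos went into a library.

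Forkhead factors bind DNA through a winged-helix domain, the forkhead box, and many act as regulators of a tissue layer or cell lineage. In the gut tube, Foxf1, Foxf2 and Foxl1 are known as mesenchymal genes that respond to Hedgehog ligands from the epithelium, Foxf1 and Foxf2 in the muscle-forming and loose mesenchyme and Foxl1 in the fibroblasts just under the epithelium. Foxc1 and Foxc2 are known from somites, vessels, the eye and the skeleton, Foxd1 from the stroma of the kidney, and Foxp1 and Foxp2 from lung, gut, heart and brain, where they act mostly as repressors.

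The 8 libraries held 7293556 to 8513116 fragments in YAP5SA and 6328344 to 6919353 in wild type. Barx1, a homeobox factor of stomach mesenchyme, averaged 158 ± 14.2 CPM (fragment counts scaled to a common total over named loci) in YAP5SA and 171 ± 7.64 CPM in wild type, and Sox2, a gastric epithelium factor, averaged 29.1 ± 9.23 CPM in YAP5SA and 75.4 ± 7.70 CPM in wild type, so the tissue's markers were present. Counts at the mouse Yap1 locus, 224 ± 13 CPM in YAP5SA and 232 ± 7.46 CPM in wild type, did not mark the transgene, while the YAP target Ankrd1 had 45.4 ± 21.4 CPM in YAP5SA and 0.391 ± 0.398 CPM in wild type. Of 14574 loci that passed the filter on low counts, 1321 (9.06%) were called higher and 1436 (9.85%) lower in YAP5SA, which is 18.9% called in either direction, by edgeR's quasi-likelihood test at a Benjamini-Hochberg adjusted p under 0.05. The median log2 fold change over all tested loci was -0.01. The groups did not overlap for 23.3% of these loci, 10.9% with YAP5SA higher and 12.4% with YAP5SA lower. Levels are given as CPM when libraries are compared for 1 gene, and as the deposited FPKM, which divides by transcript length, when genes are compared. Fold changes are log2 of YAP5SA over wild type with their standard error (SE).

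Of the 9 genes, 8 passed the filter on low counts and Foxd2 did not. Among these 8, YAP5SA was called higher for 3 (Foxd1, Foxc1 and Foxc2), against 9.06% of all tested loci, and lower for 5 (Foxf1a, Foxf2, Foxl1, Foxp1 and Foxp2), against 9.85%. The CPM values of the genotypes did not overlap for these 8 genes, against 23.3% of all tested loci. Since the genes were chosen for their genotype difference, nothing is read from these counts.

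**Figure D1:**
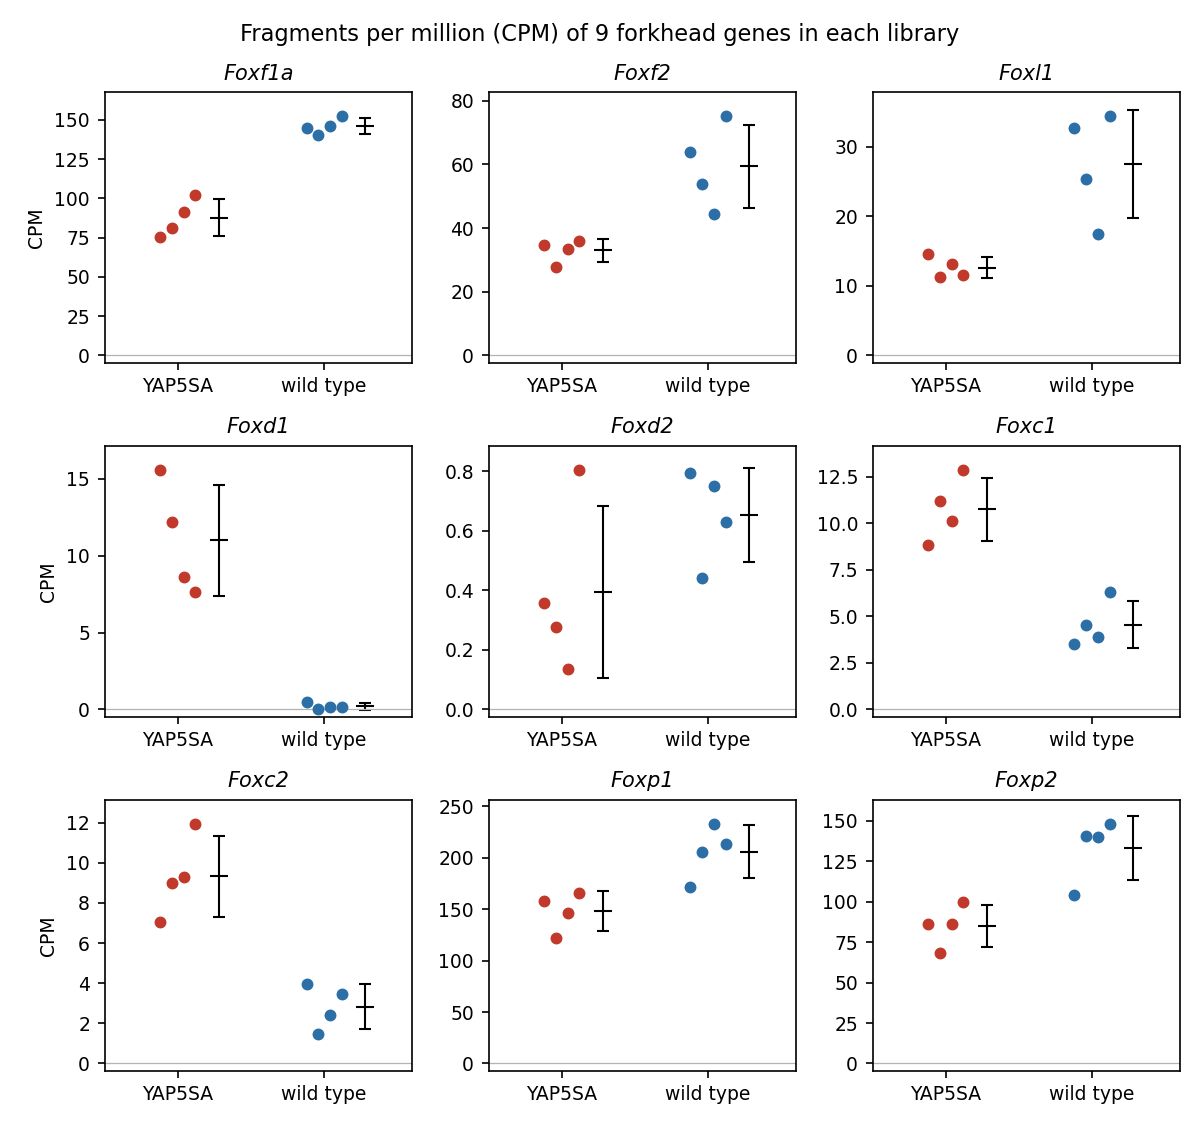
CPM of the 9 forkhead genes in the 4 YAP5SA libraries (red, left) and the 4 wild type libraries (blue, right), each point a library in the order of replicates 1 to 4, with mean and SD beside them. YAP5SA lies below wild type for Foxf1a, Foxf2, Foxl1, Foxp1 and Foxp2 and above it for Foxd1, Foxc1 and Foxc2, and the genotypes overlap for Foxd2.

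Foxf1a, which encodes the factor needed to form the visceral mesenchyme, was the most abundant member per transcript length and was lower in YAP5SA stomachs. It had 75.7, 81.2, 91.5 and 102 CPM in the YAP5SA libraries (replicates 1 to 4), against 145, 141, 146 and 153 CPM in the wild type libraries. Every YAP5SA library lay below every wild type library, and the YAP5SA libraries were spread more widely, with a coefficient of variation of 13.3% in YAP5SA against 3.35% in wild type. The means were 87.7 ± 11.7 CPM in YAP5SA and 146 ± 4.90 CPM in wild type (SD, n = 4 each), a log2 fold change of -0.74 ± 0.08 (SE). In bulk RNA of a whole stomach, fewer cells that express a gene and less RNA of it per cell cannot be told apart, and the libraries do not show which cells expressed the forkhead genes. The same order held in fragments before any scaling, although the YAP5SA libraries were deeper: 632, 588, 678 and 762 fragments in YAP5SA, against 913, 957, 976 and 966 in wild type. The Foxf1a locus was densely covered, with 0.275 fragments per exonic base in YAP5SA and 0.395 in wild type, more than 98.5% of the annotated loci. Across 425 loci of similar density (0.3 to 0.5 fragments per base), counts grew with library depth within a genotype with a slope of 0.36 on log scales, where 1 would be proportional. The part of this in the Foxf1a difference was not tested.

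Foxf2, the paralog that shares the gut mesenchyme with Foxf1, was also lower in YAP5SA. It had 34.6, 27.8, 33.5 and 36.0 CPM in the YAP5SA libraries, against 63.7, 54.0, 44.5 and 75.2 CPM in wild type. Here the wild type libraries were the more scattered ones, and the lowest of them still exceeded the highest YAP5SA library. Means were 33.0 ± 3.6 CPM in YAP5SA and 59.3 ± 13.1 CPM in wild type, a log2 fold change of -0.85 ± 0.15.

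Foxl1, a marker of the fibroblasts and telocytes that lie under the gut epithelium, had 14.6, 11.3, 13.1 and 11.5 CPM in YAP5SA, against 32.7, 25.4, 17.4 and 34.4 CPM in wild type. Its lowest wild type value, in replicate 3, was 17.4 CPM and its highest YAP5SA value 14.6 CPM, so the groups were close but did not overlap. The means of 12.6 ± 1.53 CPM in YAP5SA and 27.5 ± 7.78 CPM in wild type gave a log2 fold change of -1.12 ± 0.20. Wild type replicate 3 was also the lowest wild type library for Foxf2.

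Summed markers of several cell types were also lower in YAP5SA. The summed CPM of 8 smooth muscle markers ranged from 717 to 987 in YAP5SA and from 1453 to 1551 in wild type, with 5 of the 8 called lower and none higher. The summed CPM of 9 tested gastric epithelium markers was 490 to 658 in YAP5SA and 849 to 1019 in wild type, with all 9 called lower. Enteric neuron markers summed to 211 to 283 CPM in YAP5SA and 432 to 510 CPM in wild type (6 of 7 loci called lower). Glia markers summed to 42.8 to 48.8 CPM in YAP5SA and 98.6 to 105 CPM in wild type (3 of 4 called lower). Of all tested loci, 9.85% were called lower. The part of these shifts in the levels of the forkhead genes was not tested. Of broad mesenchymal genes, Barx1 had an edgeR adjusted p of 0.28, and Pdgfra, a receptor of mesenchymal cells, averaged 303 ± 46.3 CPM in YAP5SA and 372 ± 49.8 CPM in wild type (adjusted p = 0.12). With replicate number as a block, Pdgfra was called lower, with a log2 fold change of -0.30 (edgeR adjusted p = 0.016), as it was without wild type replicate 1 (-0.37, adjusted p = 0.041).

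Foxf1 and Foxf2 are near copies in the part that binds DNA, which bears on how fragments are shared out between them. In the coding sequences of GENCODE M21, the 36 pairs among the 9 members shared exact runs of at most 53 bases. The longest run of each paralog pair is printed here because fragments that lie wholly within it cannot be told apart. Capitals mark the shared run, and 12 flanking bases on each side are in lower case.
Foxf1: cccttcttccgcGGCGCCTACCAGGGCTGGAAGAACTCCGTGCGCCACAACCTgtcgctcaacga
Foxf2: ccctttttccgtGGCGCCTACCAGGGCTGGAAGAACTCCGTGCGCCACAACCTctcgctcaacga
Foxc1: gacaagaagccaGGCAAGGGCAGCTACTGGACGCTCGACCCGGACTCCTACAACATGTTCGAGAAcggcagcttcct
Foxc2: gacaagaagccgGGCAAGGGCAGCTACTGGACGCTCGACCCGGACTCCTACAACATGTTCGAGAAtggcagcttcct
Foxd1: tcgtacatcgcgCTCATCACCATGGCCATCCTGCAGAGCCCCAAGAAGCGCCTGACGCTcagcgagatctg
Foxd2: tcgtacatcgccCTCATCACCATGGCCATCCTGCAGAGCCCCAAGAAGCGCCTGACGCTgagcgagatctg
Foxp1: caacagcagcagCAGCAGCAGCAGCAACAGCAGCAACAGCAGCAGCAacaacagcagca
Foxp2: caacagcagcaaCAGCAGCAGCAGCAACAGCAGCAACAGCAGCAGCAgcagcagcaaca
The Foxf1 and Foxf2 run spans 41 bases from coding base 259 of Foxf1 and 415 of Foxf2. The Foxc1 and Foxc2 run is the longest, 53 bases, followed by 47 bases in Foxd1 and Foxd2. That of Foxp1 and Foxp2 has 35 bases of a repeat of CAG and CAA codons for glutamine. Between genes of different subfamilies, the longest was the 32 bases shared by Foxl1 and Foxc2, which lie side by side on chromosome 8. These runs are short against coding sequences of 1008 to 2217 bases. Their length alone does not show how many fragments fit several loci, since near matches around an exact run were not counted. The sources used here do not give how fragments that fit several loci were handled.

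In the genome, 5 of the members sit in 2 clusters, and within each cluster the genotype difference had both directions. On chromosome 8 (build mm10), Foxf1a lies at chr8:121084281-121088397, Foxc2 at chr8:121116171-121118894 and Foxl1 at chr8:121127685-121130644. Foxc2, which was higher in YAP5SA, thus lies between Foxf1a and Foxl1, which were lower, 27.8 kb from Foxf1a and 8.79 kb from Foxl1. On chromosome 13, Foxf2 lies at chr13:31625699-31632396 and Foxc1 at chr13:31806646-31810635, 174 kb apart, with Foxf2 lower and Foxc1 higher. The other members stand alone: Foxd1 at chr13:98354245-98356705, Foxd2 at chr4:114906280-114908898, Foxp1 at chr6:98925090-99456483 and Foxp2 at chr6:14901316-15441977.

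**Figure D2:**
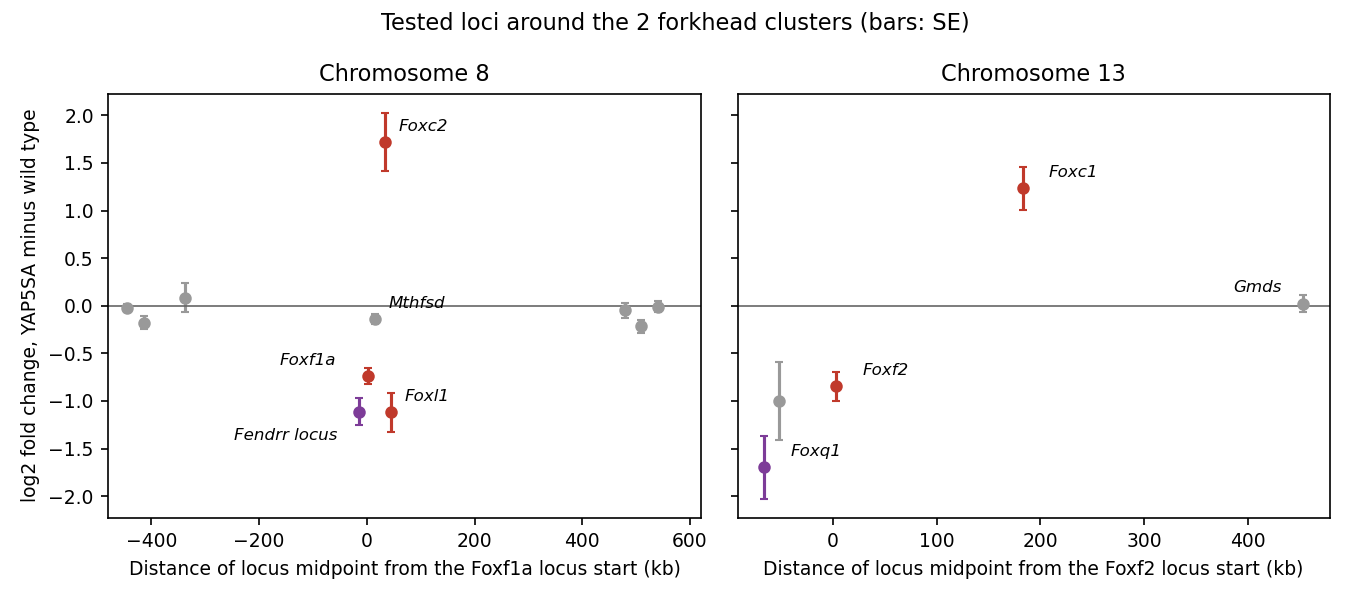
Log2 fold change (YAP5SA over wild type, bars SE) of tested loci around Foxf1a on chromosome 8 and Foxf2 on chromosome 13, against the distance of each locus midpoint from the start of that gene in kb. Forkhead members are red, Foxq1 and the Fendrr locus purple and other loci grey. Foxc2 (1.72) and Foxc1 (1.23) stand above 0, whereas Foxf1a (-0.74), Foxl1 (-1.12), the Fendrr locus (-1.11), Foxf2 (-0.85) and Foxq1 (-1.70) stand below it.

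The opposite moves within a cluster can also be written as ratios inside single libraries, where the scaling between libraries cancels. Depth need not cancel, since the slope of counts on depth was 0.36 across loci as dense as Foxf1a and 1.42 across 2329 loci of 0.02 to 0.05 fragments per base, and its part in these ratios was not tested. The ratio of Foxf1a to Foxc2 in FPKM was 13.9, 12.3, 13.4 and 12.2 in the YAP5SA libraries, against 52.2, 130, 84.1 and 59.4 in wild type. The lowest wild type ratio was well above the highest YAP5SA ratio. Foxl1 over Foxc2 averaged 1.30 ± 0.43 in YAP5SA and 9.76 ± 4.16 in wild type, so that Foxc2 came close to Foxl1 in YAP5SA stomachs. Foxf2 over Foxc1 averaged 5.13 ± 1.03 in YAP5SA and 22.1 ± 5.19 in wild type, again without overlap. In each of these ratios, both genes already separated the genotypes in FPKM, in opposite directions. The lack of overlap was thus fixed by the values used to choose the genes, and nothing further is read from it. Not every pair of members that differed in the same direction was taken as a ratio, and no pair with Foxd1 was. Of those taken, 3 ratios overlapped between genotypes, and that of Foxp1 to Foxp2, given below, did not. Foxf1a over Foxf2 was 3.34 ± 0.51 in YAP5SA and 3.19 ± 0.67 in wild type, Foxf1a over Foxl1 was 10.6 ± 2.64 in YAP5SA and 8.60 ± 2.82 in wild type, and Foxc1 over Foxc2 was 0.776 ± 0.064 in YAP5SA and 1.23 ± 0.61 in wild type.

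The nearest gene to Foxf1a is the locus 1110050K14Rik, which RefSeq lists as Fendrr, a long noncoding RNA of lateral mesoderm read in the other direction from beside the Foxf1 start. The loci lie 252 bases apart. The Fendrr locus had 110, 92.7, 104 and 114 CPM in YAP5SA, against 200, 214, 192 and 305 CPM in wild type. Its groups did not overlap, and its log2 fold change was -1.11 ± 0.14 (edgeR adjusted p = 0.00048, n = 4 each). This locus was densely covered as well, with 0.242 fragments per exonic base in YAP5SA and 0.446 in wild type. Across loci of 0.3 to 0.5 fragments per base the slope of counts on depth was 0.36. The part of depth in the Fendrr difference was not tested. The Foxf1a to Fendrr ratio in FPKM overlapped between genotypes, at 1.92 ± 0.30 in YAP5SA and 1.59 ± 0.30 in wild type. The sources used here do not say whether counting used strand, and without it reads of either strand around this shared start cannot be told apart. Foxq1, a forkhead gene of gastric surface epithelium, lies 64.7 kb from Foxf2. It had 30.1, 10.8, 13.1 and 10.2 CPM in YAP5SA, against 75.0, 44.4, 44.5 and 46.4 CPM in wild type (-1.70 ± 0.33, adjusted p = 0.0049). In both genotypes replicate 1 was the highest library for Foxq1.

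The genes around the members were called about as often as all tested loci. Within 500 kb of any member lay 44 named loci outside the 9, of which 32 passed the filter. YAP5SA was called higher for 1 and lower for 4 of these, against 9.06% and 9.85% of all tested loci, and their median log2 fold change was -0.04 against -0.01 over all tested loci. Besides Foxq1 and the Fendrr locus, the calls were Rgnef, a guanine nucleotide exchange factor gene 148 kb from Foxd1 (-0.53 ± 0.14, adjusted p = 0.020), Map1lc3b, an autophagy gene 460 kb from Foxl1 (-0.22 ± 0.06, adjusted p = 0.041), and Gm12824, 291 kb from Foxd2, at 1 of its loci (0.90 ± 0.11, adjusted p = 0.00036). The other Gm12824 locus, at the same coordinates, was not called (0.98 ± 0.33, edgeR adjusted p = 0.067). The Map1lc3b call was lost whichever of the 8 libraries was left out, and also without a filter on low counts, by DESeq2 and by both FPKM fits (adjusted p = 0.054 by DESeq2). The number called lower was 2 when YAP5SA replicate 2, 3 or 4 or wild type replicate 1 or 3 was left out, since Rgnef was then not called either, and the number called higher was 2 without YAP5SA replicate 2 or wild type replicate 4. Mthfsd, which lies between Foxf1a and Foxc2, averaged 74.5 ± 3.82 CPM in YAP5SA and 82.1 ± 0.77 CPM in wild type (adjusted p = 0.083), and Gmds, 8.95 kb beyond Foxc1, averaged 31.9 ± 1.5 CPM in YAP5SA and 31.5 ± 3.03 CPM in wild type (adjusted p = 0.92).

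Promoter sequence was read from RefSeq (GRCm38.p6) for Foxf2, Foxd1, Foxd2, Foxc1, Foxp1 and Fendrr; Foxf1a, Foxl1, Foxc2 and Foxp2 are not shown. The 250 bases upstream of the start site are printed for Foxc1 and Foxd1, which were higher in YAP5SA, and for Foxd2, the paralog of Foxd1 that stayed near the limit of detection. They lie at chr13:31806396-31806645 (plus strand), chr13:98353995-98354244 (plus) and chr4:114908899-114909148 (minus), and end where the deposited loci begin. Capitals mark matches to 5 short motifs searched on both strands: the TEAD motif GGAATG, the GLI motif GACCACCCA, the forkhead motif GTAAACA, the GC box GGGCGG and the TATA box TATAAA.
Foxc1: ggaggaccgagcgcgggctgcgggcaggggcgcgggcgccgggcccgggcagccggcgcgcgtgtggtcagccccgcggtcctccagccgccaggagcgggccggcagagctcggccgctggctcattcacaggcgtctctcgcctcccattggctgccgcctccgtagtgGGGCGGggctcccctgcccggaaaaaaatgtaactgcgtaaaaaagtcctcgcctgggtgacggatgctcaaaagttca
Foxd1: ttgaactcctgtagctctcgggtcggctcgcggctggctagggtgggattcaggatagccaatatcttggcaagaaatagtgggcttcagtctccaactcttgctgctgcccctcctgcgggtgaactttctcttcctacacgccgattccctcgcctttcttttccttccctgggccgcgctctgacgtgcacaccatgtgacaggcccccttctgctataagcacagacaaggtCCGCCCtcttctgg
Foxd2: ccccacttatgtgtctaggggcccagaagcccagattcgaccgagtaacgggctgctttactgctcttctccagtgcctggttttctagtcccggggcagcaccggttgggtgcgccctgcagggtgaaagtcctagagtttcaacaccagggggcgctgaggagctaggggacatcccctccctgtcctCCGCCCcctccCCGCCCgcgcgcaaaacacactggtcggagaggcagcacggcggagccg
The GC box, found in 35.7% of 32851 RefSeq promoters of 300 bases, matched at -79 in Foxc1, at -14 in Foxd1 and at -60 and -49 in Foxd2, counted from the start site, and no other motif matched in these windows. The deposited Foxf2 locus begins inside its RefSeq window, which held GC boxes at -227 and -201. The Fendrr window, which lies within the deposited Fendrr locus, held the forkhead motif (3.65% of promoters) at -129 to -123. The TEAD motif (14.7% of promoters) matched once, before the third listed start of Foxp1 at -134 to -129, and the GLI motif (0.253%) and the TATA box (13.6%) matched in none of the windows. G and C made up 67.3% of the Foxc1, 57.7% of the Foxd1 and 67.7% of the Foxd2 promoter of 300 bases, against a median of 52.7% over all promoters.

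Foxc1 was higher in YAP5SA stomachs. It had 8.86, 11.2, 10.1 and 12.9 CPM in the YAP5SA libraries, against 3.50, 4.56, 3.90 and 6.32 CPM in wild type. The highest wild type library, replicate 4, stayed below the lowest YAP5SA library, replicate 1. The means were 10.8 ± 1.70 CPM in YAP5SA and 4.57 ± 1.25 CPM in wild type, a log2 fold change of 1.23 ± 0.23 from 326 fragments in YAP5SA and 119 in wild type.

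Foxc2, its paralog in the chromosome 8 cluster, had 7.07, 8.98, 9.31 and 11.9 CPM in YAP5SA, against 3.97, 1.47, 2.40 and 3.47 CPM in wild type. All YAP5SA libraries lay above all wild type libraries. The means were 9.32 ± 2.00 CPM in YAP5SA and 2.83 ± 1.12 CPM in wild type, and the log2 fold change was 1.72 ± 0.31, from 282 fragments in YAP5SA and 73 in wild type. Within YAP5SA, replicate 1 was the lowest library and replicate 4 the highest for both Foxc genes.

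Endothelium and cartilage, where Foxc1 and Foxc2 are used, and also macrophages were followed by their markers. Endothelium markers summed to 686 to 787 CPM in YAP5SA and 609 to 727 CPM in wild type, and of 8 markers only Kdr, a VEGF receptor, was called higher (YAP5SA 212 ± 15.1 and wild type 138 ± 11.6 CPM, adjusted p = 0.00032). Cartilage markers summed to 173 to 241 CPM in YAP5SA and 128 to 169 CPM in wild type, with 3 of 6 called higher: Matn3 (YAP5SA 7.83 ± 1.17 and wild type 0.571 ± 0.483 CPM), the type II collagen gene Col2a1 (YAP5SA 107 ± 38.9 and wild type 52.3 ± 11.4 CPM) and Runx2, a factor of bone and hypertrophic cartilage (YAP5SA 11.5 ± 7.96 and wild type 3.71 ± 1.17 CPM). Sox9 (YAP5SA 48.4 ± 7.70 and wild type 60.4 ± 11.2 CPM) and Acan (YAP5SA 13 ± 4.28 and wild type 11.4 ± 6.97 CPM) were not called, and Matn1 had 2 fragments in all YAP5SA libraries and 3 in all wild type libraries. Of 6 listed macrophage markers, 3 were found, and all 3 were called higher. They summed to 214 to 293 CPM in YAP5SA and 115 to 167 CPM in wild type. Aif1, Cd68 and Adgre1 had no locus under their own name. Their part in the Foxc1 and Foxc2 levels was not tested.

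Foxd1, known from stromal progenitors of the kidney, was nearly absent from wild type stomachs and present in every YAP5SA library. It had 130, 88, 64 and 57 fragments in the YAP5SA libraries, against 3, 0, 1 and 1 in wild type. In CPM these were 15.6, 12.2, 8.63 and 7.65 in YAP5SA, against 0.477, 0, 0.15 and 0.158 in wild type. With 5 fragments in all 4 wild type libraries, the ratio of fragments summed over each group, scaled by the summed library sizes, was 58.1, with an exact 95% counting interval of 24.7 to 180 that covers counting error only. The fitted log2 fold change was 5.72 ± 0.51, and 6.55 without wild type replicate 1, which held 3 of the 5 fragments. Of the 9 genes, Foxd1 varied most among YAP5SA libraries after Foxd2, with a coefficient of variation of 32.8%.

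Foxd2, the other Foxd gene, stayed near the limit of detection in both genotypes. It had 3, 2, 1 and 6 fragments in the YAP5SA libraries, against 5, 3, 5 and 4 in wild type. The groups overlapped, and the scaled ratio of summed fragments was 0.605 with a counting interval of 0.264 to 1.34. A difference in Foxd2 within these bounds was not detectable at this depth.

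Kidney and mesonephros, where Foxd1 is best known, were followed by 6 markers, of which those tested were Cited1 (8.33 ± 2.65 CPM in YAP5SA and 7.18 ± 3.00 CPM in wild type, adjusted p = 0.71) and Calb1 (YAP5SA 1.40 ± 0.45 and wild type 2.53 ± 0.53 CPM, adjusted p = 0.093), and neither was called. The defining nephric genes Pax2, Pax8 and Lhx1 were close to 0: over all 4 libraries of a group, Pax2 had 6 fragments in YAP5SA and 1 in wild type, Pax8 had 15 in YAP5SA and 14 in wild type, and Lhx1 8 in YAP5SA and 21 in wild type. These markers summed to 9.58 to 15.2 CPM in YAP5SA and 7.58 to 17.2 CPM in wild type. Of other tissues next to the stomach, liver markers summed to 88.4 to 259 CPM in YAP5SA and 57.5 to 129 CPM in wild type (2 of 4 called higher), spleen primordium markers to 245 to 318 CPM in YAP5SA and 260 to 330 CPM in wild type (1 of 5 loci called lower) and mesothelium markers to 384 to 453 CPM in YAP5SA and 395 to 582 CPM in wild type (1 of 6 called lower). Their part in the Foxd1 difference was not tested.

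A locus without a gene name lay 173 kb downstream of Foxd1, at chr13:98530138-98535865, where GENCODE M21 has no gene. It had 205, 97, 56 and 23 fragments in the YAP5SA libraries, against 3, 5, 2 and 1 in wild type. The order of the YAP5SA libraries was that of Foxd1, and the spread was wider. The scaled ratio of summed fragments was 29.6, with a counting interval of 16.4 to 59.8. Another forkhead gene outside the 9, Foxb1, had 15, 11, 7 and 2 fragments in the YAP5SA libraries and 0 in all 4 wild type libraries. Against a floor of 3 fragments over the wild type group it was at least 9.98-fold higher. Its YAP5SA libraries stood in the same order again, at counts that are low.

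**Figure D3:**
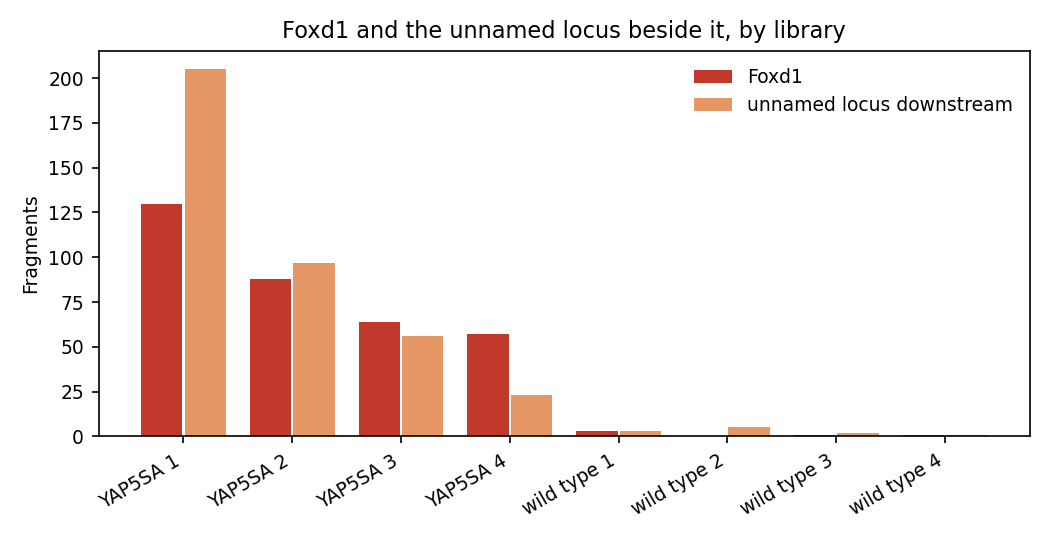
Fragments of Foxd1 (dark red) and of the unnamed locus downstream of it (orange) in each YAP5SA and wild type library. Foxd1 has 57 to 130 fragments and the unnamed locus 23 to 205 in YAP5SA, and neither has more than 5 in a wild type library.

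Foxp1 encodes a repressor used in many tissues, the stomach mesenchyme among them, and had the highest CPM of the 9. It had 158, 122, 146 and 166 CPM in YAP5SA, against 171, 205, 233 and 213 CPM in wild type. The groups were close, with 166 CPM in the highest YAP5SA library and 171 CPM in the lowest wild type library. The means were 148 ± 19.1 CPM in YAP5SA and 206 ± 25.6 CPM in wild type, and the log2 fold change of -0.47 ± 0.11 was the smallest in size among the 8 tested members.

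Foxp2, its relative with which it can dimerise through a leucine zipper, had 86.1, 68.3, 86.2 and 99.9 CPM in YAP5SA, against 104, 141, 140 and 148 CPM in wild type. The genotypes were separated by less than the spread within either, with 99.9 CPM in the highest YAP5SA and 104 CPM in the lowest wild type library. The log2 fold change was -0.64 ± 0.13, with means of 85.1 ± 13 CPM in YAP5SA and 133 ± 19.8 CPM in wild type. In unscaled fragments both genes overlapped between the genotypes: Foxp1 had 883 to 1320 fragments in YAP5SA and 1079 to 1552 in wild type, and Foxp2 494 to 745 in YAP5SA and 654 to 956 in wild type. Foxp1 over Foxp2 in FPKM was 1.59 to 1.74 in YAP5SA and 1.38 to 1.57 in wild type, without overlap.

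Both Foxp genes have many annotated transcripts, 31 for Foxp1 and 20 for Foxp2, whereas Foxl1, Foxd1, Foxd2, Foxc1 and Foxc2 have a single exon and Foxf1 and Foxf2 have 2. The deposited Foxp1 locus ends before the most upstream annotated start. A separate locus without a name at chr6:99520651-99523721, which overlaps that part of the Foxp1 annotation, had 309 fragments in YAP5SA and 325 in wild type, with a scaled ratio of summed fragments of 0.813 (counting interval 0.694 to 0.953) and overlapping libraries. Enteric neurons, which can also express Foxp genes, had lower marker sums in YAP5SA, as given above, and their part was not tested.

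Per transcript length, Foxf1a led in both genotypes, with 46.9 ± 7.89 FPKM in YAP5SA and 78.2 ± 2.94 FPKM in wild type. It made up 42.1% of the FPKM sum of the 9 genes in YAP5SA and 47.2% in wild type. The order in YAP5SA went on with Foxp1 (21.6 ± 2.68 FPKM), Foxf2 (14.1 ± 1.73), Foxp2 (12.9 ± 1.98), Foxd1 (4.80 ± 1.58), Foxl1 (4.52 ± 0.56), Foxc2 (3.64 ± 0.78), Foxc1 (2.80 ± 0.44) and Foxd2 (0.161 ± 0.118). In wild type it went on with Foxp1 (29.5 ± 3.70 FPKM), Foxf2 (25.4 ± 5.85), Foxp2 (20.1 ± 2.92), Foxl1 (9.75 ± 2.77), Foxc1 (1.18 ± 0.32), Foxc2 (1.1 ± 0.44), Foxd2 (0.265 ± 0.064) and Foxd1 (0.085 ± 0.087). Foxd1 thus stood at rank 5 in YAP5SA and at rank 9 in wild type. Neighbours in the order that overlapped between libraries were Foxf2 and Foxp2, Foxd1 and Foxl1, Foxl1 and Foxc2, and Foxc2 and Foxc1 in YAP5SA. In wild type they were Foxp1 and Foxf2, Foxf2 and Foxp2, Foxc1 and Foxc2, and Foxd2 and Foxd1.

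**Figure D4:**
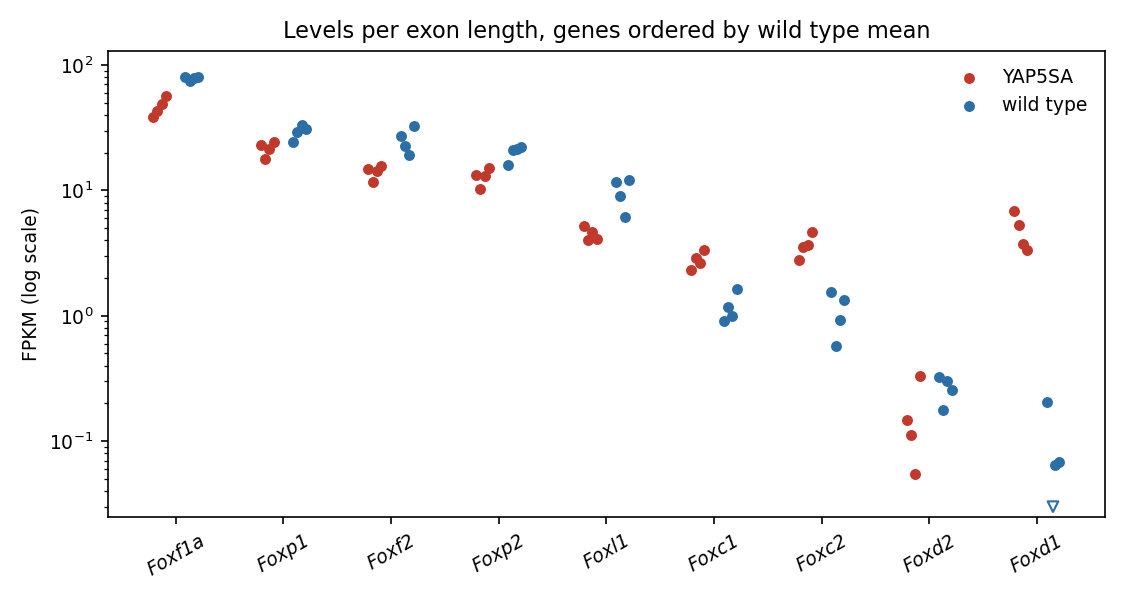
FPKM (log scale) of each forkhead gene in each YAP5SA (red) and wild type (blue) library, genes ordered by the wild type mean. The open triangle at the bottom marks the wild type library in which Foxd1 is at 0, and Foxd1 lies between 3.33 and 6.81 FPKM in YAP5SA while it is the lowest of the 9 in wild type.

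Of the rest of the forkhead family, nearly all genes called were lower in YAP5SA. Of 35 other forkhead genes, 33 were found among the loci and 18 passed the filter. YAP5SA was called higher for 1 of these 18 and lower for 7, against 9.06% and 9.85% of all tested loci, with a median log2 fold change of -0.15 against -0.01. Among the lower genes were the endoderm factors Foxa1 (39.5 ± 14.1 CPM in YAP5SA and 104 ± 12.6 CPM in wild type, adjusted p = 0.0013), Foxa2 (YAP5SA 23.4 ± 4.98 and wild type 48.5 ± 5.98 CPM, adjusted p = 0.00096) and Foxa3 (YAP5SA 7.35 ± 2.15 and wild type 15.6 ± 3.94 CPM, adjusted p = 0.011), which mark epithelium; the Foxa3 call was lost in both FPKM fits. Foxd3, a neural crest factor, fell to 4.76 ± 1.13 CPM in YAP5SA, against 15.3 ± 1.38 CPM in wild type (adjusted p = 0.00034). Foxq1 (given above), Foxo6 (YAP5SA 8.26 ± 1.56 and wild type 15.2 ± 3.51 CPM, adjusted p = 0.013) and Foxp4, another Foxp repressor (YAP5SA 162 ± 13.6 and wild type 198 ± 6.04 CPM, adjusted p = 0.0079), were the other genes called lower. Foxk2, a broadly expressed repressor, was called higher (YAP5SA 177 ± 6.03 and wild type 152 ± 15.5 CPM, adjusted p = 0.041), but not when YAP5SA replicate 2, 3 or 4 or wild type replicate 2 or 3 was left out. Without wild type replicate 1, Foxs1, a gene of perivascular cells, was called higher as well (7.11 ± 3.20 CPM in YAP5SA and 2.95 ± 2.39 CPM in wild type with all libraries, adjusted p = 0.11). With replicate number as a block the count called higher was 3, with Foxs1 and Foxn2 added. The 15 found genes that did not pass the filter had at most 35 fragments in a group, and 4 of them were at 0 in all 8 libraries.

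**Figure D5:**
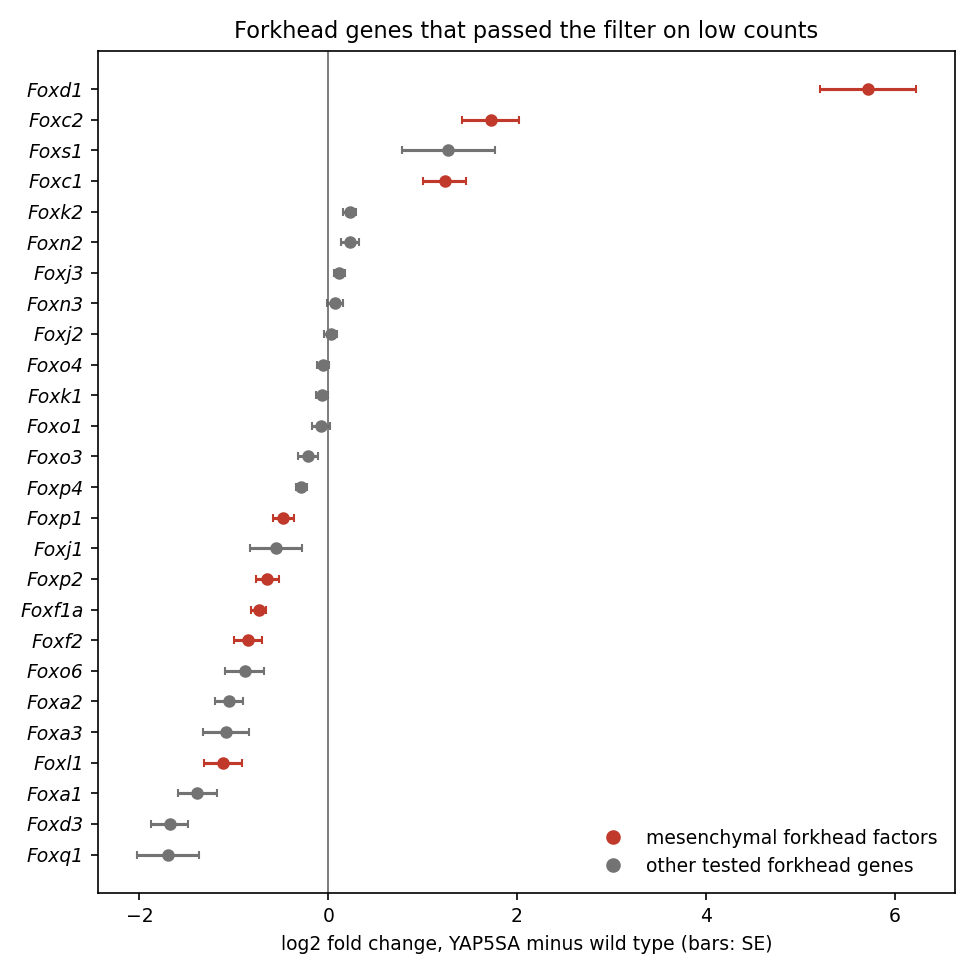
Log2 fold change of YAP5SA over wild type (bars SE) for the 26 forkhead genes that passed the filter on low counts, the 8 mesenchymal members in red and 18 other forkhead genes in grey. Foxd1 (5.72) lies far above the rest, and Foxq1 (-1.70) and Foxd3 (-1.68) are at the low end.

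Hedgehog signalling is the known inducer of Foxf1, Foxf2 and Foxl1 in the gut, so the genes of that pathway were set beside them. Of 15 tested, 3 were called higher and 6 lower, against 9.06% and 9.85% of all tested loci, with a median log2 fold change of -0.10 against -0.01. The ligand genes Shh (28.1 ± 8.49 CPM in YAP5SA and 64.0 ± 10.7 CPM in wild type, adjusted p = 0.0024) and Ihh (YAP5SA 26 ± 10.02 and wild type 73.4 ± 10.2 CPM, adjusted p = 0.0015) fell, as did the receptor and target gene Ptch1 (YAP5SA 181 ± 29.8 and wild type 297 ± 33.5 CPM, adjusted p = 0.0021). Hhip, a decoy receptor (YAP5SA 31.6 ± 7.54 and wild type 58.1 ± 18.1 CPM, adjusted p = 0.018), and Gli1, the target that carries the signal (YAP5SA 69.2 ± 18 and wild type 118 ± 31.3 CPM, adjusted p = 0.025), were among the genes called lower. Without YAP5SA replicate 2 or 3 neither of them was called, and 3 genes of the pathway were called lower. Gli1 was not called either without YAP5SA replicate 1 or wild type replicate 1 or 4, without a filter on low counts or by the FPKM fits. The coreceptor genes Boc (YAP5SA 173 ± 4.60 and wild type 117 ± 19.6 CPM, adjusted p = 0.0026) and Gas1 (YAP5SA 214 ± 17.3 and wild type 180 ± 12.9 CPM, adjusted p = 0.029) and the ligand release gene Disp1 (YAP5SA 105 ± 6.36 and wild type 72.7 ± 11.9 CPM, adjusted p = 0.0051) rose, although Gas1 was not called without YAP5SA replicate 2 or 3 or wild type replicate 2 or 4. Of the members, Foxf1a, Foxf2 and Foxl1, with log2 fold changes of -0.74, -0.85 and -1.12, lay in the range of Ptch1 (-0.71), Gli1 (-0.77) and Hhip (-0.88) or below it.

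Other regulators of the stomach mesenchyme were called at shares not far from those of all tested loci. The 20 listed genes gave 24 tested loci, of which 3 were called higher and 4 lower, against 9.06% and 9.85% of all tested loci, with a median log2 fold change of 0.06 against -0.01. The TEAD factor gene Tead4 (81.4 ± 10.2 CPM in YAP5SA and 18.1 ± 6.93 CPM in wild type at 1 of its loci, adjusted p = 0.00015), Gata3 (YAP5SA 22.4 ± 5.57 and wild type 8.24 ± 1.74 CPM, adjusted p = 0.0013) and Hand1 (YAP5SA 8.47 ± 5.59 and wild type 3.02 ± 0.90 CPM, adjusted p = 0.044) were higher. Six2, a factor of the posterior stomach, was lower at both of its loci (YAP5SA 19.5 ± 5.19 and wild type 61.4 ± 10.4 CPM at one, adjusted p = 0.00029, and YAP5SA 53.8 ± 9.06 and wild type 96.3 ± 8.58 CPM at the other, adjusted p = 0.00075), as were Pitx1 (YAP5SA 104 ± 8.44 and wild type 162 ± 13.9 CPM, adjusted p = 0.00037) and Nkx2-5 (YAP5SA 27.2 ± 6.52 and wild type 42.0 ± 7.83 CPM, adjusted p = 0.036). Hand1 was not called by limma-voom, by the FPKM fits or without YAP5SA replicate 2 or 4 or any 1 of the wild type libraries, and its log2 fold change without YAP5SA replicate 4 was 0.97 (adjusted p = 0.10). Nkx2-5 was not called without a filter on low counts, on log2(FPKM + 0.1), or without YAP5SA replicate 2 or 4 or wild type replicate 1 or 2. The replicate block raised the number called higher to 5 by adding Meis2 and Prrx1. Of 14 genes of subepithelial fibroblasts, the cells that Foxl1 marks, 5 were called higher and 3 lower, against the same 9.06% and 9.85%, with a median of -0.03. The higher ones were the tissue factor gene F3 (1.70 ± 0.21, adjusted p = 0.00048), the Wnt ligand genes Wnt4 (0.88 ± 0.17, adjusted p = 0.0058) and Wnt5a (0.33 ± 0.09, adjusted p = 0.021), the Wnt amplifier gene Rspo3 (0.54 ± 0.09, adjusted p = 0.0030) and the BMP ligand gene Bmp4 (0.50 ± 0.09, adjusted p = 0.0033) on the log2 scale. The lower ones were the BMP ligand gene Bmp5 (-1.04 ± 0.15, adjusted p = 0.0011), the Notch ligand gene Dll1 (-1.0 ± 0.20, adjusted p = 0.0058) and Gli1 as above. Wnt5a was not called without YAP5SA replicate 3. Foxl1, at -1.12 ± 0.20, was lower as Bmp5, Dll1 and Gli1 were, whereas the other called genes of these cells were higher.

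Across the libraries of a genotype, the members did not all move together. In YAP5SA, replicate 4 was the highest library for 6 of the 8 tested members (Foxf1a, Foxf2, Foxc1, Foxc2, Foxp1 and Foxp2) and the lowest for Foxd1. Replicate 2 was the lowest for Foxf2, Foxl1, Foxp1 and Foxp2, and replicate 1 the lowest for Foxf1a, Foxc1 and Foxc2 and the highest for Foxl1 and Foxd1. In wild type, replicate 4 was the highest for Foxf1a, Foxf2, Foxl1, Foxc1 and Foxp2, and replicate 1 the lowest for Foxc1, Foxp1 and Foxp2.

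Likeness of profile was measured as the root mean square difference between centred log2(CPM + 0.5) profiles over the 8 libraries, among 14079 other tested loci with a single name. Genotype was not removed from the profiles, so the measure takes in the genotype difference for which the members were chosen. A near rank therefore does not show that 2 loci vary together within a genotype. By this measure Foxf2 was the 7th nearest locus to Foxl1 (0.18 log2 units) and Foxl1 the 29th nearest to Foxf2, with the Fendrr locus 28th for Foxf2, 45th for Foxl1 and 596th for Foxf1a, its neighbour in the genome. Foxp1 was 7th for Foxp2 and Foxp2 26th for Foxp1, and Foxc1 was 29th for Foxc2 but Foxc2 437th for Foxc1. The 2 nearest loci were Cacna1h (0.067) and Zcchc12 (0.088) for Foxf1a, Frat2 (0.10) and Acsl6 (0.11) for Foxf2, and Rgag1 (0.12) and Galnt6 (0.15) for Foxl1. They were Eya4 (0.090) and Prtg (0.18) for Foxc1 and Nanos1 (0.29) and Tfr2 (0.31) for Foxc2. For Foxd1 they were Wnt6 (0.29) and Wnt7a (0.38), 2 Wnt ligand genes. The nearest neighbours of Foxd1 and Foxc2 lay farther off than those of the other tested members. For Foxp1 they were Sobp (0.065) and Cend1 (0.076), and for Foxp2 Crmp1 (0.095) and Cend1 (0.099). Wnt6 averaged 32.4 ± 8.09 CPM in YAP5SA and 2.27 ± 0.48 CPM in wild type, and Eya4 41.2 ± 6.12 CPM in YAP5SA and 19.0 ± 4.65 CPM in wild type.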

How the data were processed

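Whole-stomach RNA of 4 YAP5SA and 4 wild type libraries at E13.5 was used, grouped by the labels' genotype. Per the labels' protocols, RNA was extracted with Trizol and made into Illumina TruSeq libraries. The submitters' processing notes name TopHat2 2.0.9, Cufflinks 2.2.1, Cuffdiff and the build mm10. The sources used here give no duplicate removal, strand or multiply mapped read setting. The deposited per-library table holds, per the file headers, raw fragments, which are estimated counts (10.6% to 11.0% of values per library were not whole), and FPKM scaled between libraries by the authors. That table numbers the libraries of a genotype from 0 to 3, and these were taken in order as replicates 1 to 4, which leaves the groups unaffected. Deposited group FPKM equalled the mean of the 4 libraries within 0.01.

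Counts were rounded. The 3582 loci without a gene name (1.85% to 1.97% of fragments) entered neither library sizes nor tests. The fit used edgeR 4.0.16 in R 4.3.3 (robust quasi-likelihood, TMM, filterByExpr with 10 and 15 fragments, genotype only, two-sided) and was tested on simulated data. Alternatives were RLE and upper-quartile factors, other filters, DESeq2 1.42.0, limma-voom (limma 3.58.1), limma on log2(FPKM + 1) and log2(FPKM + 0.1), a replicate block and leaving out each library. Same-numbered libraries deviated together (correlations of 0.220, 0.143, 0.141 and 0.206, each highest with its own number), although the labels name no pairing. The main fit did not use the replicate numbers, so its p-values ignore any pairing. Only the fit with the replicate block takes it in. Libraries of a group differed by more than counting error, and p-values weigh the genotype difference against the spread between libraries. Members and gene lists were chosen with earlier results of these data known. All members were named, every called gene of a list (at most the 6 with the smallest p where over 8 were called) and called neighbours within 500 kb, plus genes a count needed. Foxb1, Foxs1, Mthfsd and Gmds were named with their values in view, and so were the unnamed loci and the genes of the marker lists. A few genes of the lists are not reported here by name. Gene structure and coding sequences came from GENCODE M21.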

Additional observations from a re-analysis of the deposited data

Results flagged for a closer look

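The unnamed locus 173 kb downstream of Foxd1 lies outside the tested loci, and its YAP5SA mean of 12.2 ± 9.31 CPM exceeded the wild type mean of 0.418 ± 0.251 CPM, with every YAP5SA library above every wild type library. Its values were 24.5, 13.6, 7.48 and 3.05 CPM in YAP5SA, against 0.483, 0.737, 0.296 and 0.157 CPM in wild type. Dixon's criterion was applied to the 9 members and the Fendrr locus in each genotype. None of these 20 groups held a library far from the others. Foxq1 was not among the loci checked. Its replicate 1 had 30.1 CPM in YAP5SA, where the other libraries had 10.2 to 13.1 CPM. In wild type its replicate 1 had 75.0 CPM and the other libraries 44.4 to 46.4 CPM.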

How the results depend on the processing

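Since the members were chosen for their difference in these libraries, only their values are given under the 17 alternatives. Over these, the log2 fold change ranged from -0.81 to -0.66 for Foxf1a, -0.95 to -0.71 for Foxf2, -1.28 to -0.93 for Foxl1, 2.38 to 6.55 for Foxd1, 0.81 to 1.43 for Foxc1, 1.16 to 1.94 for Foxc2, -0.54 to -0.37 for Foxp1 and -0.73 to -0.53 for Foxp2. The lowest Foxd1 value came from log2(FPKM + 1), whose added constant shrinks low values, and the highest without wild type replicate 1.

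Of 204 recomputed counts, 184 stayed within 1.5 times. The count of other forkhead genes called higher was 2 without a filter on low counts, where Foxb1 was added. The count of neighbours called higher was 2 by DESeq2 and by both FPKM fits. Leaving out a library gave 1004 to 1284 higher and 974 to 1521 lower loci. It gave 0 to 2 higher other forkhead genes, 3 to 6 lower Hedgehog genes, 1 to 2 higher and 2 to 4 lower neighbours. With the replicate block, 3 other forkhead genes and 5 stomach mesenchyme regulators were called higher, against 1 and 3 without it, and no other count moved by over 1.5 times. The cause was not tested.

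Depth limits Foxd2 and the wild type level of Foxd1, which rest on 17 and 5 wild type fragments.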

Other observations

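Near Foxf2, an unnamed locus at chr13:31592692-31625594, which ends 105 bases before it and overlaps the lincRNA annotations 1700018A04Rik and Gm11378, had 7, 2, 4 and 4 fragments in YAP5SA, against 13, 17, 4 and 20 in wild type. The ratio of summed fragments, scaled by the summed library sizes, was 0.269, with a counting interval of 0.146 to 0.472, and the libraries overlapped. The named locus of 1700018A04Rik, 43.2 kb from Foxf2, averaged 1.28 ± 0.67 CPM in YAP5SA and 2.62 ± 0.87 CPM in wild type (edgeR adjusted p = 0.12).

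Beyond the 3′ end of Fendrr, which is read from the minus strand, 3 unnamed loci at chr8:121016444-121026280, 58.0 kb from Foxf1a, had 19, 7 and 20 fragments over the YAP5SA libraries, against 33, 20 and 38 over the wild type libraries. All 3 overlapped between genotypes.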
